A study of Mus musculus with 8 samples.

Results

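The genes studied here are 10 mouse genes of bile acid handling in the liver, followed through 8 liver RNA-seq libraries, 2 in each of 4 groups. They were chosen by name, with earlier results of these data known, and grouped by role. Of them 3 are enzymes of synthesis (Cyp7a1, Cyp8b1 and Cyp27a1), and 3 are uptake carriers (Slc10a1, Slco1a1 and Slco1b2). A further 2 are exporters (Abcb11 and Abcc2), and 2 are nuclear receptors that regulate the others (Nr1h4 and Nr0b2). All 10 were found among the 23006 genes of the count table, and all 10 were among the 16876 genes that passed the filter on low counts. The mice were wild type in every group, and the labels give no age, sex or strain. Mice of the SLIT2+APAP group were given intraperitoneal SLIT2, the secreted protein that binds ROBO receptors, for 3 days at 2 µg per animal, and acetaminophen (APAP) at 400 mg/kg. The APAP group received phosphate-buffered saline (PBS) and the same dose of APAP, the SLIT2 group received SLIT2 at that dose without APAP, and control mice received PBS. Livers were taken 24 h after APAP. The APAP libraries are numbered 3 and 4 and those of every other group 1 and 2. The labels leave unsaid whether both libraries of a group come from different mice. The p-values therefore reflect only how far these samples spread, and that spread may be technical.

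Hepatocytes make bile acids from cholesterol, take the acids that return from the gut up across the membrane facing the blood, and pump them into the bile canaliculus. Cyp7a1 sets the rate of the classic route of synthesis. FXR, the nuclear receptor encoded by Nr1h4, is activated by bile acids. It raises the export pump Abcb11 and the small heterodimer partner Nr0b2, which in turn represses Cyp7a1 and Cyp8b1. An overdose of APAP injures hepatocytes around the central vein, the zone in which Cyp7a1 is mainly expressed.

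Each library held 60.8 to 100.5 M counts, M standing for 1000000. Levels are given as CPM, the counts a gene has for every 1000000 of the library's TMM-scaled size, and no member had fewer than 227 counts in a library. The SLIT2 libraries stood apart. The 13 mitochondrially encoded genes took 60.25% and 69.01% of their counts, against 15.99% and 17.26% in control, and 25.09% and 30.27% in SLIT2+APAP, against 14.86% and 13.42% in APAP. The summed level of 7 hepatocyte markers (Alb, Ttr and others) was 8030 to 14800 CPM in SLIT2, against 57300 to 79000 CPM in control, and all 7 fell. It was 71600 to 74300 CPM in SLIT2+APAP and 87600 to 111000 CPM in APAP. In such bulk samples, fewer cells of a type and less RNA per cell cannot be told apart. Calls that do not involve the SLIT2 group are therefore also given from a fit without its libraries. Skeletal muscle markers summed to at most 1.43 CPM in the 6 libraries of treated mice, against 91.2 to 833 CPM in control, and all 6 fell in each comparison with control. The part of these differences in the results on the bile acid genes was not tested.

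Promoters of 9 members were found in RefSeq on build GRCm38.p6, and none was listed for Cyp7a1. The 250 bases before the start site are printed for 4 of them, 5′ to 3′ on the gene's own strand, with the matched letters in capitals. Abcb11 and Slco1b2 are shown because both hold a near match to the inverted repeat that FXR binds, Slco1a1 because it was called in both comparisons of an APAP-treated group with control, and Cyp8b1 because it holds an HNF4A element. The windows are chr2:69342617-69342866 on the minus strand for Abcb11, chr6:141629268-141629517 on the plus strand for Slco1b2, chr6:141946963-141947212 on the minus strand for Slco1a1 and chr9:121916306-121916555 on the minus strand for Cyp8b1.
Abcb11: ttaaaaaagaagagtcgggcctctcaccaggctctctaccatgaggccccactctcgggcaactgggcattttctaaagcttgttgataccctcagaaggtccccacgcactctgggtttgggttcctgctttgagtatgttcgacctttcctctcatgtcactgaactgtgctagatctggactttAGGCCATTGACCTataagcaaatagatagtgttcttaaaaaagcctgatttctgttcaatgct
Slco1b2: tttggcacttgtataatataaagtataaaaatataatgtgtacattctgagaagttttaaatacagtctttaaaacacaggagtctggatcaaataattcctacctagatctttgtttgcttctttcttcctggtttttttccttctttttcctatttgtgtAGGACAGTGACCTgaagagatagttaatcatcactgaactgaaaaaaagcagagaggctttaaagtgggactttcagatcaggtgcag
Slco1a1: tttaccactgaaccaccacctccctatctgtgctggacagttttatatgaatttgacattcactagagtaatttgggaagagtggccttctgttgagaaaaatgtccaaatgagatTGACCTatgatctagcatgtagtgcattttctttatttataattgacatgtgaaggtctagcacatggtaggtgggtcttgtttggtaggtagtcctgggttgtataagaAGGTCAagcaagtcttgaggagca
Cyp8b1: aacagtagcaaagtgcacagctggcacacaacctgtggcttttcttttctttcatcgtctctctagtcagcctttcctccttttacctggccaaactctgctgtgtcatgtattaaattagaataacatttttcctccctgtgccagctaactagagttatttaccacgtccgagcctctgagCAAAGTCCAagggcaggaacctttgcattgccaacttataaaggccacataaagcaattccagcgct
The FXR repeat was searched as AGGTCANTGACCT on both strands with at most 1 mismatch. It was present in 0.0799% of 32536 RefSeq windows of the same length (26 windows), and in 2 of the 9 members with a window, at -63 to -51 from the start site in Abcb11 and at -88 to -76 in Slco1b2. Each arm of it is the core nuclear receptor element AGGTCA, so each of these matches also holds that element. The core element alone was present in 14.0% of all windows and in 6 of the 9 members. The pair in capitals in Slco1a1 are such core elements, and Slc10a1 (in 1 of its 2 listed windows), Nr1h4 and Abcc2 hold 1 each. The Slc10a1 window with the match (chr12:80968080-80968329) and the Nr1h4 window (chr10:89506659-89506908) lie inside the gene coordinates given below, not at their upstream end. The Abcc2 window (chr19:43782058-43782307) crosses the upstream end of its gene coordinates, and its match lies inside them. The HNF4A element CAAAGTCCA was present in 0.387% of windows and, of the members, in Cyp8b1 at -67 to -59. The element of LRH-1 (Nr5a2), TCAAGGTCA, was present in 0.375% of windows and in 0 members. These matches describe letters, not bound sites.

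With APAP alone, the uptake carrier Slco1a1 fell to 112 ± 5.16 CPM, against 296 ± 42.7 CPM in control (SD, n = 2 each), and no other member passed the test. In livers given SLIT2 and APAP, Cyp27a1 and Abcc2 fell and Nr1h4 rose relative to APAP alone. Relative to control, the SLIT2+APAP group had 1 member called, again Slco1a1, which fell. With SLIT2 alone Slc10a1, Slco1a1 and Cyp8b1 fell. The 4 comparisons share libraries, so the values of a member are given side by side, and agreement between comparisons is not counted as evidence.

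A gene was called at an adjusted p under 0.05 in edgeR's quasi-likelihood test, with Benjamini-Hochberg adjustment over all 16876 genes. In APAP against control 1 of 10 members was called, and 0.788% of all genes. Between SLIT2+APAP and APAP 3 of 10 were called, and 13.9% of all genes. Set against control, SLIT2+APAP had 1 of 10 called, and 2.16% of all genes. In SLIT2 against control 3 of 10 were called, a smaller share than the 54.9% of all genes. The interaction, which is the SLIT2 effect with APAP minus the SLIT2 effect without it, was called for 4 of 10 members and 28.8% of all genes. The members were chosen with earlier results of these data known, so these shares describe the set and do not test it.

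The 2 libraries of each group did not overlap for 9 members in APAP against control (53.0% of all genes), 8 in SLIT2+APAP against APAP (58.2%), 7 in SLIT2+APAP against control (67.5%) and 9 in SLIT2 against control (82.6%). Non-overlap is thus common among all genes with 2 libraries a group, and an exact two-sided permutation test of a single gene cannot go below p = 0.333. The median log2 fold change over the members was -0.74 in APAP against control, where it was 0.05 over all genes. It was -0.07 in SLIT2+APAP against APAP (all genes -0.06), -0.45 in SLIT2+APAP against control (0.04) and -0.49 in SLIT2 against control (0.00).

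**Figure D1:**
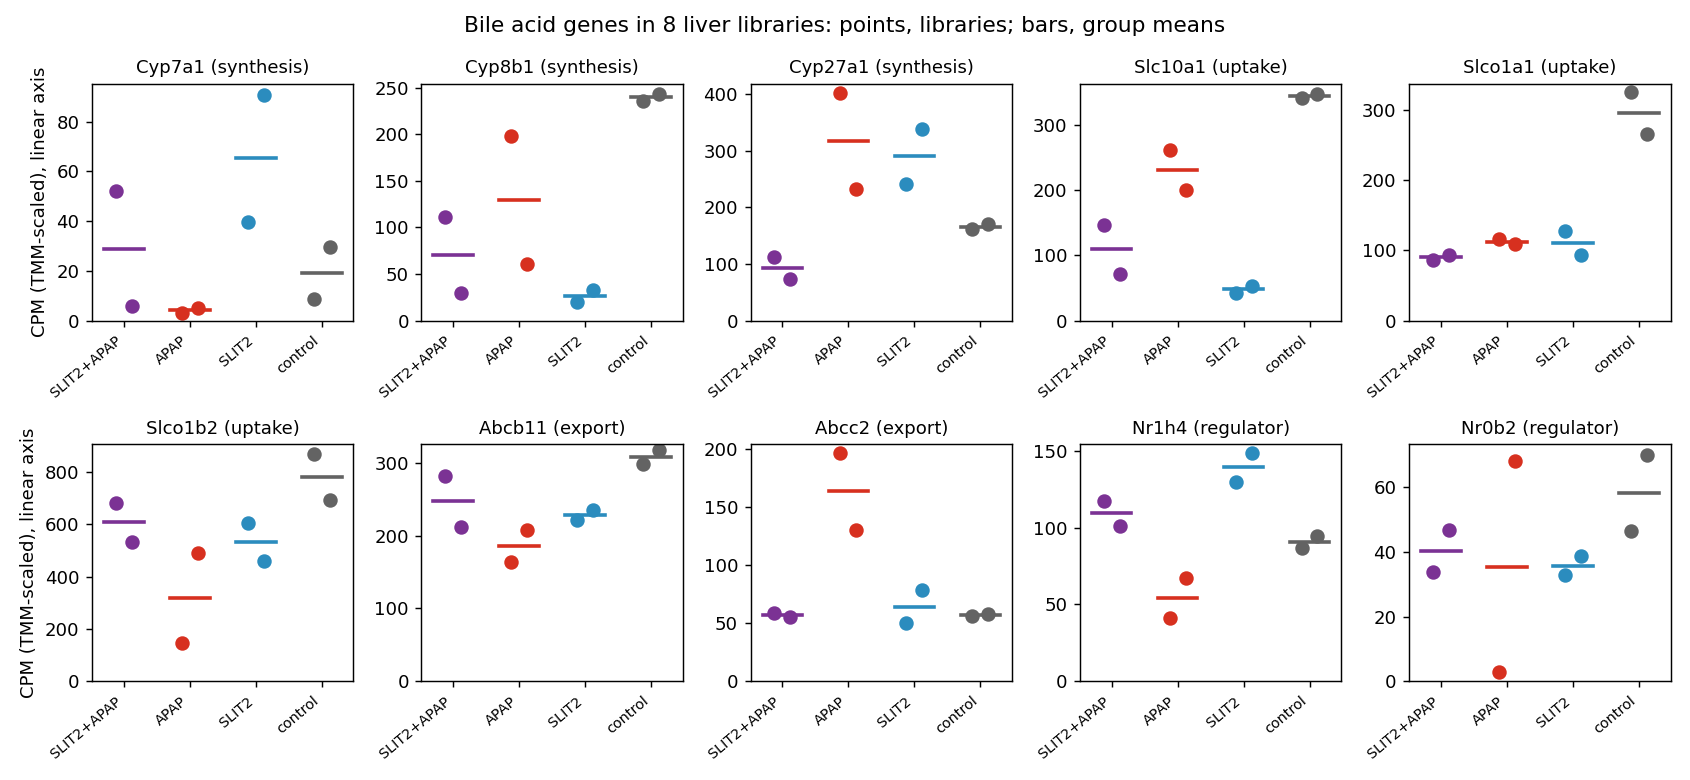
Level of each of the 10 genes in CPM after TMM scaling (linear axes from 0) in the SLIT2+APAP, APAP, SLIT2 and control libraries. Points are libraries and bars are the means of 2 libraries. The control libraries of Slco1a1, at 326 and 266 CPM, lie above all others, and the APAP libraries of Abcc2, at 197 and 130 CPM, lie above all others.

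Among the enzymes, Cyp7a1 (ENSMUSG00000028240, chr4:6265612-6275633, minus strand, GRCm38) had 52.0 and 5.98 CPM in the SLIT2+APAP libraries and 3.23 and 5.04 CPM in the APAP libraries. It had 39.8 and 90.9 CPM in the SLIT2 libraries and 8.49 and 29.4 CPM in the control libraries. Both APAP libraries lay below all 6 others, and the SLIT2+APAP libraries spanned the control range, 8.70-fold apart from each other. APAP differed from control by a log2 fold change of -2.19 ± 0.96 (SE, edgeR adjusted p = 0.2075), with a 95% interval of -4.42 to 0.03. SLIT2+APAP differed from APAP by 2.80 ± 0.99 (adjusted p = 0.0931). Without SLIT2+APAP 1 the difference of SLIT2+APAP from APAP was 0.53 (adjusted p = 0.7294), so its size rested on 1 library. No comparison called Cyp7a1.

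Cyp8b1 (ENSMUSG00000050445, chr9:121914356-121916305, minus strand), the sterol hydroxylase needed to make cholic acid, had 111 and 29.3 CPM in SLIT2+APAP, 198 and 60.3 CPM in APAP, 19.5 and 32.8 CPM in SLIT2 and 236 and 243 CPM in control. All 6 treated libraries lay below both control libraries. The SLIT2 libraries were low together, while the libraries of APAP and of SLIT2+APAP differed 3.28-fold and 3.80-fold within the group. Cyp8b1 fell with SLIT2 alone (log2 fold change -3.20 ± 0.73, edgeR adjusted p = 0.00725), a call lost without SLIT2 1 (adjusted p = 0.0628). The log2 fold change was -0.89 ± 0.68 in APAP against control (adjusted p = 0.4472) and -1.77 ± 0.69 in SLIT2+APAP against control (adjusted p = 0.2056). SLIT2+APAP against APAP gave -0.88 ± 0.68 (adjusted p = 0.3996), and 0.22 without APAP 3.

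Cyp27a1 (ENSMUSG00000026170, chr1:74713574-74737892, plus strand), a mitochondrial hydroxylase that starts the alternative route and oxidises the sterol side chain, had 112 and 73.7 CPM in SLIT2+APAP and 402 and 233 CPM in APAP. It had 242 and 337 CPM in SLIT2 and 162 and 170 CPM in control. The APAP and SLIT2 libraries lay above control without overlap, and the livers given both agents held the lowest values of the 8. Cyp27a1 fell in SLIT2+APAP relative to APAP (log2 fold change -1.77 ± 0.35, 3.41-fold lower, edgeR adjusted p = 0.0185). Without the SLIT2 libraries the call stood (-1.72, adjusted p = 0.033), and it was lost when either SLIT2+APAP library was left out or when the 4 compared libraries were fitted alone (adjusted p up to 0.1779). Relative to control, the log2 fold changes were 0.94 ± 0.34 with APAP (adjusted p = 0.1479), 0.80 ± 0.34 with SLIT2 (adjusted p = 0.0745) and -0.83 ± 0.34 with both (adjusted p = 0.2163). The interaction was -2.57 ± 0.48 (adjusted p = 0.00957), and was lost without control 1 (adjusted p = 0.052).

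**Figure D2:**
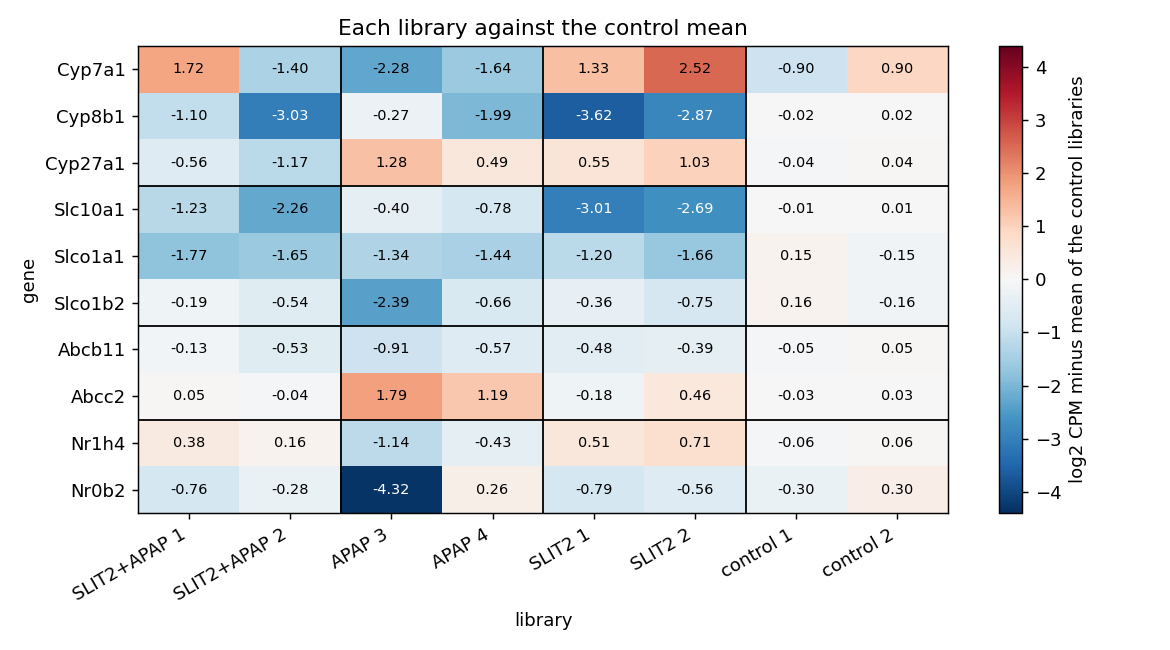
Log2 CPM of each gene in each library minus the mean log2 CPM of the 2 control libraries, with columns for libraries in the order SLIT2+APAP, APAP, SLIT2 and control, and rows from synthesis to regulators. Red is above and blue is below the control mean. Slco1a1 is blue in all 6 treated libraries (-1.77 to -1.20), Abcc2 is red in APAP (1.79 and 1.19), and Nr0b2 in APAP 3 (-4.32) is the darkest cell.

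Of the uptake carriers, Slco1a1 (ENSMUSG00000041698, chr6:141907282-141946962, minus strand), a sodium-independent organic anion transporter, had 86.3 and 93.7 CPM in SLIT2+APAP, 116 and 109 CPM in APAP, 128 and 93.2 CPM in SLIT2, and 326 and 266 CPM in control. All 6 treated libraries lay far below both control libraries. Both SLIT2+APAP libraries lay below both APAP libraries, and the SLIT2 libraries overlapped each of those groups. Slco1a1 fell with APAP (log2 fold change -1.40 ± 0.24, 2.64-fold lower, edgeR adjusted p = 0.0497), with SLIT2 and APAP together (-1.72 ± 0.24, 3.29-fold, adjusted p = 0.0283) and with SLIT2 alone (-1.42 ± 0.24, 2.67-fold, adjusted p = 0.00168). SLIT2+APAP against APAP gave -0.32 ± 0.24 (95% interval -0.86 to 0.22, adjusted p = 0.3756). That comparison passed in 1 of 18 alternatives, with offsets for GC content (edgeR adjusted p = 0.0469). The interaction was 1.10 ± 0.33 (adjusted p = 0.042), the fall with both agents being smaller, in log2 units, than the sum of the falls with each.

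The Slco1a1 call in APAP against control lies at the threshold. It stood in 7 of 18 alternatives, with adjusted p from 1.201e-05 (DESeq2) to 0.3703, and was lost without the SLIT2 libraries (-1.38, adjusted p = 0.0768), without each single library of control, SLIT2 or SLIT2+APAP, in the fit of the 4 compared libraries, with offsets for GC content, with the legacy fit and with library totals only. The call in SLIT2+APAP against control stood in 12 of 20, and was lost without the SLIT2 libraries (-1.65, adjusted p = 0.0603), without each single library of those 3 groups and with library totals only. The call in SLIT2 against control stood in 19 of 19. Slco1a1 has close relatives, and how the authors counted reads that match several genes is not given in the sources used here, so its counts may hold reads of others. Slco1a4, a related carrier named here after its values were seen, had 66.3 and 40.3 CPM in SLIT2+APAP, 20.0 and 28.7 CPM in APAP, 72.1 and 115 CPM in SLIT2 and 25.1 and 45.9 CPM in control. Unlike Slco1a1 it rose with SLIT2 alone (log2 fold change 1.40 ± 0.40, edgeR adjusted p = 0.0182), and the difference between the genes was not tested.

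Slc10a1 (ENSMUSG00000021135, chr12:80953183-80968705, minus strand), the sodium-dependent taurocholate transporter that takes up most conjugated bile acids, had 148 and 72.1 CPM in SLIT2+APAP, 262 and 200.4 CPM in APAP, 42.7 and 53.4 CPM in SLIT2 and 342 and 349 CPM in control. The 4 groups did not overlap, and they ran in the order SLIT2, SLIT2+APAP, APAP and control. Slc10a1 fell with SLIT2 alone (log2 fold change -2.84 ± 0.37, 7.18-fold lower, edgeR adjusted p = 0.000479), in the main fit and in 19 of 19 alternatives. It did not pass in SLIT2+APAP against control (-1.65 ± 0.35, adjusted p = 0.0545) or in SLIT2+APAP against APAP (-1.07 ± 0.35, adjusted p = 0.0737), and APAP against control gave -0.58 ± 0.34 (adjusted p = 0.3323). SLIT2+APAP against control passed in 8 of 20 alternatives, with adjusted p from 0.00034 (DESeq2) to 0.459, among them the fit of the 4 compared libraries and those without APAP 3 (0.0168) or APAP 4 (0.0178). SLIT2+APAP against APAP passed in 2 of 18, with DESeq2 (adjusted p = 0.0273) and without APAP 4. The interaction was 1.77 ± 0.49 (adjusted p = 0.0312).

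Slco1b2 (ENSMUSG00000030236, chr6:141629518-141686646, plus strand), the liver-specific organic anion carrier, had 682 and 533 CPM in SLIT2+APAP, 148 and 491 CPM in APAP, 605 and 461 CPM in SLIT2, and 868 and 694 CPM in control. APAP 3 was far below every other library, while APAP 4 lay among the SLIT2 libraries. No comparison called Slco1b2. Its log2 fold change in APAP against control was -1.29 ± 0.50 (edgeR adjusted p = 0.1673), with a 95% interval of -2.45 to -0.13. Over the alternatives it ran from -2.42, without APAP 4, to -0.67. Leaving out APAP 4 leaves 1 APAP library, so that fit holds no spread within the APAP group. In log2 CPM, APAP 3 lay at -2.39 from the control mean and APAP 4 at -0.66.

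**Figure D3:**
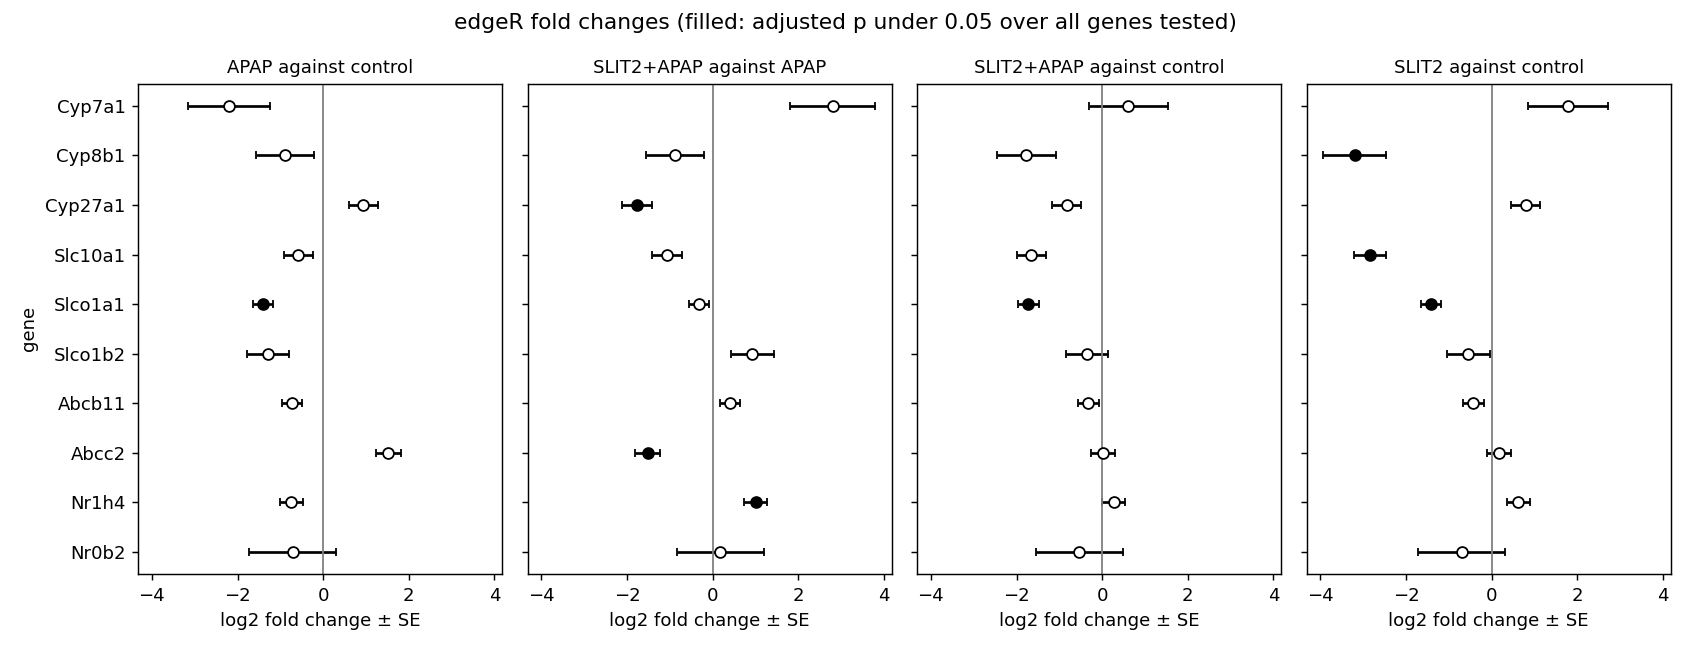
Log2 fold change of each gene in 4 comparisons, with whiskers of 1 standard error and filled circles for edgeR adjusted p under 0.05. Cyp27a1 (-1.77), Abcc2 (-1.52) and Nr1h4 (1.01) are filled in SLIT2+APAP against APAP, and Slco1a1 is filled in all 3 comparisons with control.

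Of the exporters, Abcc2 (ENSMUSG00000025194, chr19:43782192-43840740, plus strand), a canalicular pump for bilirubin conjugates and other organic anions, had 58.9 and 55.2 CPM in SLIT2+APAP, 197 and 130 CPM in APAP, 50 and 78.4 CPM in SLIT2 and 55.9 and 57.8 CPM in control. Only the APAP libraries were high, and both lay above the other 6. Abcc2 fell in SLIT2+APAP relative to APAP (log2 fold change -1.52 ± 0.29, 2.86-fold lower, edgeR adjusted p = 0.0172), also without the SLIT2 libraries (-1.47, adjusted p = 0.0252). That call was lost when either SLIT2+APAP library was left out and in the fit of the 4 compared libraries (adjusted p up to 0.1703). In APAP against control Abcc2 narrowly missed the threshold (1.52 ± 0.29, adjusted p = 0.0567) and passed in 4 of 18 alternatives. SLIT2+APAP against control gave 0.01 ± 0.28, with a 95% interval of -0.65 to 0.66. The interaction was -1.69 ± 0.40 (adjusted p = 0.0204).

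Abcb11 (ENSMUSG00000027048, chr2:69238282-69342616, minus strand), the bile salt export pump, had 281 and 212 CPM in SLIT2+APAP, 163 and 208 CPM in APAP, 221 and 235 CPM in SLIT2, and 298 and 317 CPM in control. All 6 treated libraries lay below control, with the APAP libraries lowest. The span over the 8 libraries was small, and no comparison called it. The log2 fold change was -0.73 ± 0.24 in APAP against control (edgeR adjusted p = 0.1241) and 0.41 ± 0.24 in SLIT2+APAP against APAP (adjusted p = 0.2652). Exons of Abcb11 overlap those of the antisense gene Gm13613 and the pseudogene Gm13614 on the other strand. Their counts reached at most 9.63 and 0.177 CPM, and since the strand setting of the counting is not given, their reads and those of Abcb11 cannot be told apart.

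Of the receptors, Nr1h4 (ENSMUSG00000047638, chr10:89454234-89533585, minus strand), which encodes FXR, had 118 and 101 CPM in SLIT2+APAP, 41.0 and 67.5 CPM in APAP, 129 and 149 CPM in SLIT2 and 86.7 and 94.7 CPM in control. The groups did not overlap, with APAP lowest, then control, SLIT2+APAP and SLIT2. Nr1h4 rose in SLIT2+APAP relative to APAP (log2 fold change 1.01 ± 0.27, 2.02-fold, edgeR adjusted p = 0.0439). That call stood in 8 of 18 alternatives and was lost without the SLIT2 libraries (1.05, adjusted p = 0.0604), with offsets for GC content, in the fit of the 4 compared libraries and without each single library other than APAP 4 (adjusted p up to 0.2307). Relative to control, APAP gave -0.74 ± 0.27 (adjusted p = 0.1477), SLIT2+APAP 0.27 ± 0.27 (adjusted p = 0.6262) and SLIT2 0.62 ± 0.27 (adjusted p = 0.0823).

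Nr0b2 (ENSMUSG00000037583, chr4:133553376-133556536, plus strand), the small heterodimer partner that FXR induces, had 33.7 and 46.9 CPM in SLIT2+APAP, 2.83 and 68.1 CPM in APAP, 32.8 and 38.7 CPM in SLIT2 and 46.4 and 69.9 CPM in control. The 2 APAP libraries were 24.1-fold apart, APAP 3 far below every other library and APAP 4 within the control range. No group mean of APAP describes these values. The log2 fold change in APAP against control was -0.71 ± 1.02 (edgeR adjusted p = 0.6962), -4.38 without APAP 4 and 0.23 without APAP 3. SLIT2+APAP against APAP likewise gave 0.18 ± 1.01, 3.85 without APAP 4 and -0.76 without APAP 3. Each of these fits leaves 1 APAP library, so it holds no spread within the APAP group. In APAP 3, Slco1b2 and Nr1h4 were also lower than in APAP 4, and Cyp8b1, Cyp27a1 and Abcc2 were higher. Markers of other cells differed between these libraries too. All 6 endothelial markers were higher in APAP 3, where they summed to 92.1 CPM, than in APAP 4, where they summed to 35.0 CPM, with Lyve1 at 38.4 and 3.31 CPM. All 6 neutrophil markers were likewise higher, with sums of 21.3 CPM in APAP 3 and 7.14 CPM in APAP 4, though Ly6g reached at most 0.0125 CPM. Of 7 monocyte and macrophage markers 2 were higher in APAP 3, among them Cd68 at 23.8 and 10.2 CPM. The others were lower, among them Spp1 at 19.4 and 43.5 CPM, and the sums were 50.5 CPM in APAP 3 and 66.4 CPM in APAP 4. Of 8 cholangiocyte markers 1 was higher, Sox9 at 44.2 and 9.18 CPM, and the others were lower. Their sums were 75.6 CPM in APAP 3 and 70.8 CPM in APAP 4. Of 7 hepatocyte markers 5 were higher, with sums of 111000 CPM in APAP 3 and 87600 CPM in APAP 4. The part of these differences in the values of Nr0b2 and Slco1b2 was not tested.

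To compare levels between genes, CPM were divided by exon length in kb. In SLIT2+APAP livers Slco1b2 led at 123 ± 21.4 CPM per kb (SD, n = 2), above Slc10a1 at 49.9 ± 24.2, Abcb11 at 48.0 ± 9.49, Nr1h4 at 47.5 ± 4.98, Cyp27a1 at 42.8 ± 12.6, Cyp8b1 at 36.1 ± 29.7 and Nr0b2 at 35.6 ± 8.24 CPM per kb. Each neighbour from Slc10a1 to Nr0b2 overlapped the next, so their order is not resolved. Slco1a1 at 17.1 ± 0.994, Cyp7a1 at 6.94 ± 7.79 and Abcc2 at 6.69 ± 0.31 CPM per kb were lowest. In APAP livers Cyp27a1 stood first at 146 ± 55.0 CPM per kb, overlapping Slc10a1 at 105 ± 19.8, and Cyp7a1 was last at 0.991 ± 0.307, below Abcc2 at 19.1 ± 5.50 CPM per kb without overlap.

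In SLIT2 livers Cyp27a1 at 133 ± 31.1 and Slco1b2 at 108 ± 20.7 CPM per kb overlapped each other and lay above Nr1h4 at 60.4 ± 5.93 CPM per kb. Nr1h4, Abcb11 at 44.3 ± 1.90, Nr0b2 at 31.6 ± 3.68 and Slc10a1 at 21.8 ± 3.42 CPM per kb followed one another without overlap. Slc10a1, Slco1a1, Cyp7a1 and Cyp8b1 overlapped from each to the next, and Abcc2 was last at 7.52 ± 2.35 CPM per kb. In control livers Slco1b2 at 158 ± 25.0 and Slc10a1 at 157 ± 2.26 CPM per kb overlapped, followed without overlap by Cyp8b1 at 123 ± 2.67 and Cyp27a1 at 76.2 ± 2.62 CPM per kb. Abcb11, Slco1a1, Nr0b2 and Nr1h4 ran from 59.8 ± 2.69 to 39.4 ± 2.45 CPM per kb with each overlapping the next, and Abcc2 at 6.66 ± 0.165 and Cyp7a1 at 4.54 ± 3.55 CPM per kb were lowest and overlapped.

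Likeness of pattern was measured as the root mean square difference of centred log2 CPM over the 8 libraries, among 8350 genes of at least 5 CPM on average. The gene nearest to Cyp8b1 was another member, Slc10a1, at 0.459, with Gulo next at 0.556, where the median over all genes was 1.28. For Slc10a1 the nearest were Gulo at 0.201 and Cct4 at 0.249, with a median of 1.03. Slco1a1 was nearest to C6 at 0.282 and Slc25a45 at 0.315, and Slco1b2 to Xiap at 0.151 and Hykk at 0.196. Abcb11 was nearest to Fam69a at 0.102 and Slc26a1 at 0.121, and Abcc2 to Nt5dc3 at 0.185 and Itpkc at 0.193. Nr1h4 was nearest to Ttc14 at 0.0942 and Angel2 at 0.0969, and Nr0b2 to Sorbs2 at 0.534 and B3galt1 at 0.546. Cyp27a1 was nearest to Nol9 at 0.275 and Gnat1 at 0.315. The genes closest to Cyp7a1 were 1810019D21Rik at 0.912 and 1700128F08Rik at 0.914, where the median over all genes was 1.91, the largest of any member. These are descriptions over libraries that share the difference between the SLIT2 libraries and the rest.

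Lists of other bile acid genes were likewise drawn up with earlier results of these data known, so their counts describe and do not test. Of 15 listed genes of synthesis and conjugation, 14 were tested. Between SLIT2+APAP and APAP 1 rose, 4 fell and 9 did not pass, where 13.9% of all genes were called, with a median log2 fold change of -0.42 (all genes -0.06). Akr1d1, the steroid reductase of the classic route, rose to 219 and 165 CPM in SLIT2+APAP, against 45.0 and 79.0 CPM in APAP (a log2 fold change of 1.63 ± 0.37, with an edgeR adjusted p of 0.0279). Cyp39a1, an oxysterol hydroxylase, fell to 7.48 and 5.70 CPM, against 23.1 and 25.3 CPM in APAP (-1.88 ± 0.23, adjusted p = 0.00619). Cyp2c70, which makes muricholic acids in mice, fell to 75.9 and 70.0 CPM, against 218 and 186 CPM in APAP (-1.47 ± 0.23, adjusted p = 0.0111). Acox2, the peroxisomal oxidase of the side chain, and Slc27a5, which links bile acids to coenzyme A, also fell (-1.13 ± 0.19, adjusted p = 0.013, and -0.91 ± 0.23, adjusted p = 0.0396). Without the SLIT2 libraries these 4 falls stood, with edgeR adjusted p from 0.0179 (Cyp39a1) to 0.0484 (Slc27a5), and the rise of Akr1d1 was lost (1.67, adjusted p = 0.0505). All 5 calls were lost in the fit of the 4 compared libraries (adjusted p from 0.0845 to 0.1245), where 1 gene of all tested was called, and without SLIT2+APAP 2. Without SLIT2+APAP 1 the call of Cyp39a1 alone stood.

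Set against control, 0 of these 14 rose with SLIT2+APAP, 4 fell and 10 did not pass, where 2.16% of all genes were called, with a median of -0.94 (all genes 0.04). The 4 were Cyp39a1 (-1.42 ± 0.23), Cyp2c70 (-1.44 ± 0.23), Acox2 (-1.18 ± 0.19) and Amacr (-1.21 ± 0.22), a racemase of the side chain. All 4 calls were lost without the SLIT2 libraries (edgeR adjusted p from 0.0708 to 0.0745), where 3 genes of all tested were called, without each single library of control, SLIT2 or SLIT2+APAP, and with library totals only. They stood in the other 12 of 20 alternatives. Amacr had 59.5 and 51.7 CPM in SLIT2+APAP, 65.0 and 76.2 CPM in APAP and 134 and 123 CPM in control. In APAP against control 0 of 14 were called by edgeR. Of these 6 had an unadjusted p under 0.05 (of all genes 4148 of 16876), and DESeq2 called 5 (1836 of 15869). The smallest p was that of Amacr (-0.86 ± 0.22, adjusted p = 0.081). The median was -0.61 (all genes 0.05).

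Of 13 other transport genes 12 were tested, and in SLIT2+APAP against APAP 0 rose, 3 fell and 9 did not pass, where 13.9% of all genes were called (median -0.40, all genes -0.06). Abcc3, a pump of the membrane facing the blood, fell to 5.73 and 3.46 CPM in SLIT2+APAP, against 25.1 and 46.0 CPM in APAP (7.75-fold lower, log2 fold change -2.95 ± 0.38, adjusted p = 0.00647). In control Abcc3 had 14.4 and 10.7 CPM, between these groups, and neither APAP (1.50 ± 0.36, adjusted p = 0.0748) nor SLIT2+APAP (-1.45 ± 0.36, adjusted p = 0.0761) passed against it. Ephx1, an epoxide hydrolase placed on the list for a reported role in bile acid uptake, had 118 and 110 CPM in SLIT2+APAP and 335 and 441 CPM in APAP (-1.77 ± 0.23, adjusted p = 0.00641). Abcb4, which moves phosphatidylcholine into bile, had 57.3 and 47.3 CPM in SLIT2+APAP and 88.6 and 137 CPM in APAP (-1.11 ± 0.29, adjusted p = 0.0409). Without the SLIT2 libraries the falls of Abcc3 (-2.91, adjusted p = 0.0223) and Ephx1 (-1.73, adjusted p = 0.0179) stood, and that of Abcb4 was lost (-1.07, adjusted p = 0.0599). All 3 were lost in the fit of the 4 compared libraries (edgeR adjusted p from 0.0845 to 0.1296) and without SLIT2+APAP 2, and Abcc3 alone was called without SLIT2+APAP 1. Cholangiocytes also express Abcc3, and the summed level of 8 cholangiocyte markers was 30.8 to 38.0 CPM in SLIT2+APAP and 70.8 to 75.6 CPM in APAP, where Sox9 held 44.2 CPM of the sum in APAP 3 and Spp1, also on the macrophage list, 43.5 CPM in APAP 4. Krt7 had 2.42 and 1.17 CPM in SLIT2+APAP and 1.26 and 1.27 CPM in APAP, with Krt19 at most 1.54 CPM and Cftr at most 0.0834 CPM in any library. The part of these cells in the result was not tested. In APAP against control edgeR called 0 of 12. Of these 5 had an unadjusted p under 0.05 (of all genes 4148 of 16876), and DESeq2 called 2 (1836 of 15869). For SLIT2+APAP against control edgeR called 0 of 12. Of these 4 had an unadjusted p under 0.05 (of all genes 3445 of 16876), and DESeq2 called 4 (1455 of 14977). The smallest p of the list was that of Abcb4 (-1.39 ± 0.29, edgeR adjusted p = 0.0529).

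Of 14 other regulators 12 were tested. Rxra, the partner with which FXR binds DNA, fell to 149 and 144 CPM in SLIT2+APAP, against 385 and 321 CPM in APAP (-1.27 ± 0.24 in log2, adjusted p = 0.0163), and was the only regulator of this list called in that comparison, where 13.9% of all genes were. The call stood without the SLIT2 libraries (-1.22, adjusted p = 0.0222) and was lost in the fit of the 4 compared libraries (adjusted p = 0.0928), without either SLIT2+APAP library and with library totals only. Relative to control, at 181 and 186 CPM, APAP gave 0.95 ± 0.24 (adjusted p = 0.081) and SLIT2+APAP -0.32 ± 0.23 (adjusted p = 0.4953). In the main fit of SLIT2+APAP against APAP, Nr1h4 and Rxra, the partners in a heterodimer, were thus called in opposite directions. The Nr1h4 call lay near the threshold (edgeR adjusted p = 0.0439), stood in 8 of 18 alternatives and was lost without the SLIT2 libraries. In APAP against control edgeR called 0 of 12. Of these 3 had an unadjusted p under 0.05 (of all genes 4148 of 16876), and DESeq2 called 1 (1836 of 15869). For SLIT2+APAP against control edgeR called 0 of 12. Of these 1 had an unadjusted p under 0.05 (of all genes 3445 of 16876), and DESeq2 called 0 (1455 of 14977). The smallest p of the list was that of Mafg, a repressor of bile acid synthesis genes that FXR induces (0.70 ± 0.23, edgeR adjusted p = 0.1335). Mafg had 84.2 and 84.8 CPM in SLIT2+APAP and 43.1 and 60.6 CPM in control.

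**Figure D4:**
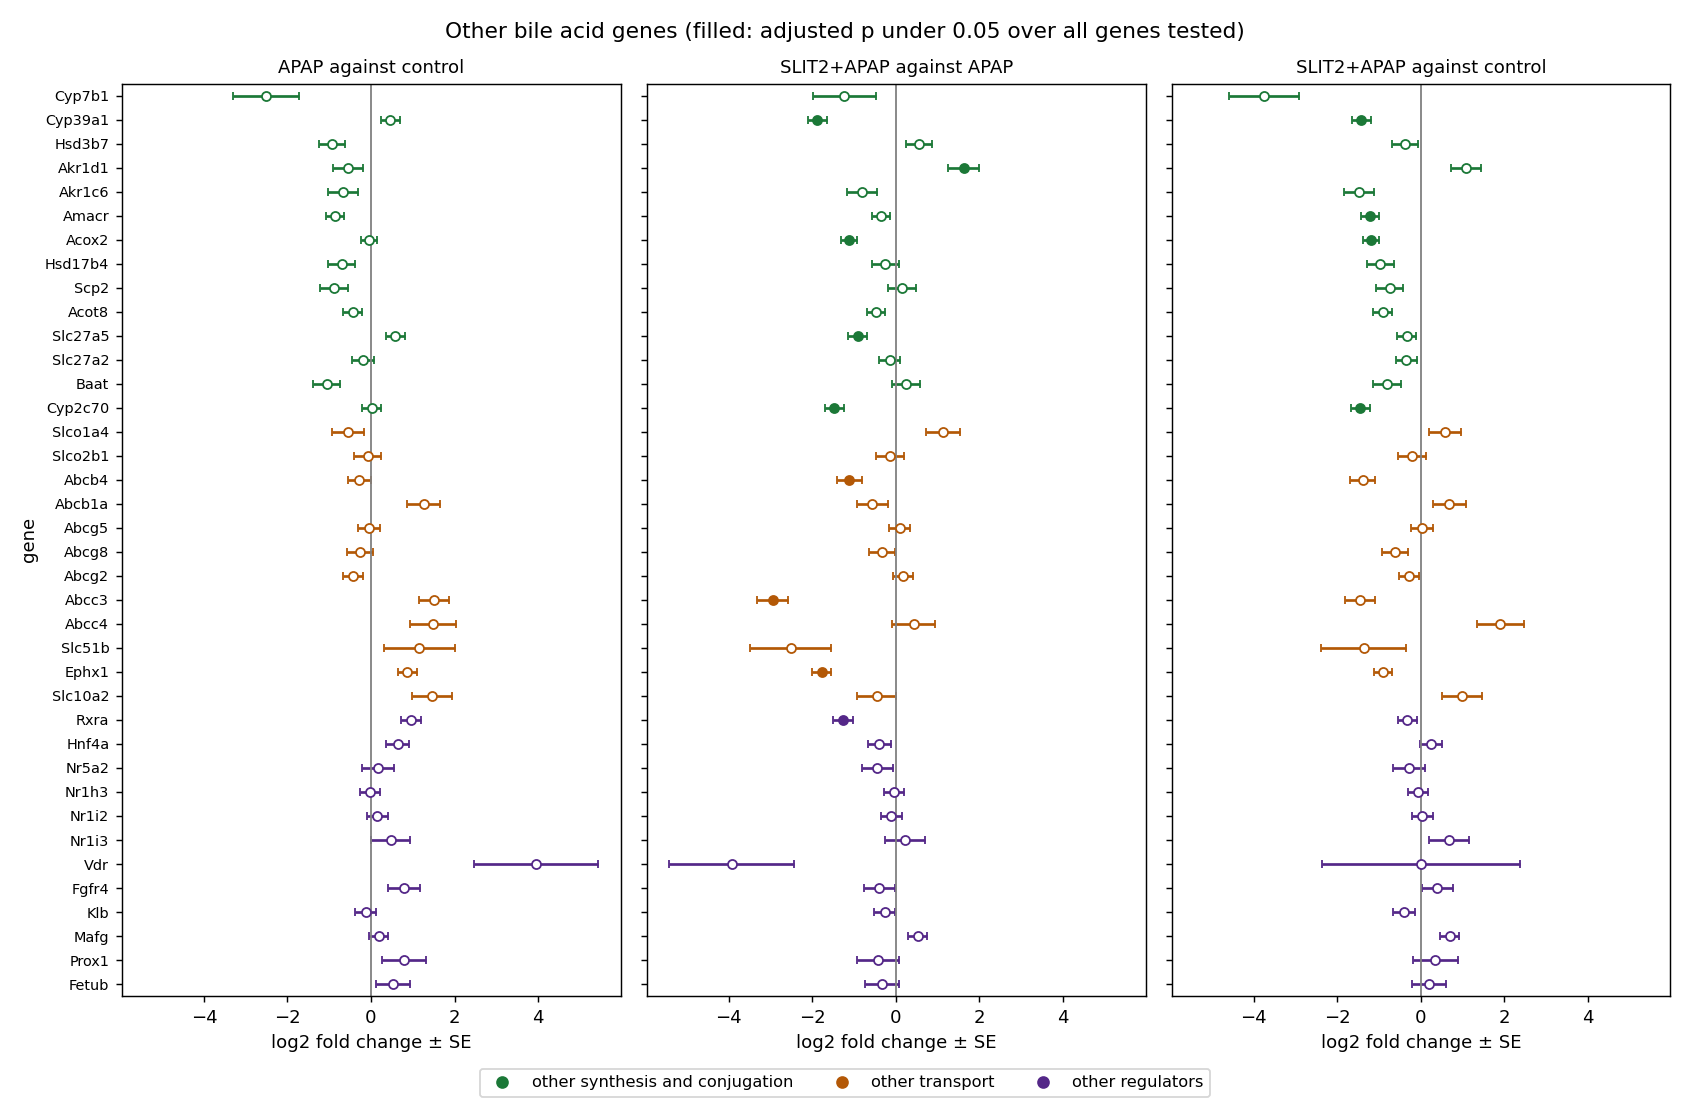
Log2 fold change with 1 standard error of the other bile acid genes tested in 3 comparisons, coloured by list, with filled circles for edgeR adjusted p under 0.05. The middle column holds 9 filled circles, of which Akr1d1 (1.63) alone lies right of 0, and the left column holds none.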

How the data were processed

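RNA of 8 mouse liver samples was sequenced with a directional kit, per the labels' protocols. The deposited values are whole-number counts per Ensembl gene, not scaled by the authors. Per the submitters' processing notes, STAR 2.5.4, Cufflinks, Cuffdiff 2.2.1 and build mm10 were used. How the reads were counted, with which annotation and strand setting, is not given in the sources used here.

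Symbols, coordinates and exon lengths came from GENCODE M21 (22329 of 23006 genes matched, 97.1%). Genes were kept by filterByExpr (16876), scaled by TMM and tested with edgeR 4.0.16 in R 4.3.3 by the quasi-likelihood test (robust, legacy = FALSE) with 1 mean per group over all 8 libraries. Calls used a Benjamini-Hochberg adjusted p under 0.05 over all genes. Log2 CPM used a prior count of 2. Promoter windows came from RefSeq on GRCm38.p6. Total counts were 60.8 to 100.5 M per library, and the size of counting error beside the spread between libraries was not tested.

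The members and lists were chosen with earlier results of these data known. Named genes are the 10 members, other bile acid genes called in a comparison with an APAP-treated group, the smallest p of a list without a call, the 2 nearest genes of each member and, chosen after its values were seen, Slco1a4. The deviations of same-numbered libraries correlated at 0.0747 (control and SLIT2), -0.0706 (control and SLIT2+APAP) and -0.0147 (SLIT2 and SLIT2+APAP). These values cannot settle whether equal numbers mark pairs, since each group gives a single difference and the APAP group is left out. Alternatives were other scalings, filters, DESeq2 1.42.0, the legacy fit, GC offsets, fewer libraries, each library left out and a replicate block. After seeing the data, the block's 6 libraries were also fitted without the number, and the other bile acid genes were read out under every alternative. The test was tested on simulated data. Markers of Kupffer, stellate, lymphoid, gut and pancreas cells are not reported here. Figures were drawn with matplotlib 3.10.9.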

Additional observations from a re-analysis of the deposited data

Results flagged for a closer look

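For 4 of the 10 genes the effect of SLIT2 differed between livers with and without APAP, by the interaction term of the edgeR model with adjustment over all genes (28.8% of all genes were called). For Cyp27a1 the interaction was -2.57 ± 0.48 on the log2 scale (adjusted p = 0.00957). SLIT2 went with a log2 difference of -1.77 with APAP and of 0.80 without it, and the call stood in 15 of 16 alternatives. For Abcc2 it was -1.69 ± 0.40 (adjusted p = 0.0204), from -1.52 with APAP and 0.18 without it, in 11 of 16. For Slc10a1 it was 1.77 ± 0.49 (adjusted p = 0.0312), from -1.07 with APAP and -2.84 without it, in 10 of 16. For Slco1a1 it was 1.10 ± 0.33 (adjusted p = 0.042), from -0.32 with APAP and -1.42 without it, in 8 of 16. All 4 rest on the SLIT2 libraries, with 60.25% and 69.01% of counts from mitochondrially encoded genes, and the part of that share in the interaction was not tested.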

How the results depend on the processing

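Over 910 recomputed fold changes of the 10 genes, 784 kept their direction and side of the threshold, 56 lost a call, 50 gained one and 20 changed sign. Most of the 910 belong to results that were not called in the main fit and so had no call to lose. The number of the 10 genes called in APAP against control (1) was 0 with the legacy fit and without the SLIT2 libraries. It was also 0 with the 4 compared libraries and with GC offsets. In these fits 5 or 6 of the 10 had an unadjusted p under 0.05, as did 2654 to 3997 of all genes. The number was 2 without a count filter and 4 with DESeq2. Of all genes, 54 of 16876 were called with the legacy fit, 0 of 15932 without the SLIT2 libraries and 0 of 15410 with the 4 libraries. With GC offsets 75 of 16876 were called, without a filter 205 of 23006 and with DESeq2 1836 of 15869. With a library left out, which leaves 1 library in a group, it moved both up and down, here and in the other comparisons. It was highest without APAP 4 in APAP against control, SLIT2+APAP against APAP and the interaction. The number over all genes was highest in that fit too. In SLIT2+APAP against APAP (3) the number of the 10 called was 0 with the 4 compared libraries, where 1 of 15500 genes was called. Of the 10, 5 had an unadjusted p under 0.05 there, and of all genes 3915. The number called also fell without either SLIT2+APAP library, as did the number over all genes. Brackets after a setting give the genes called of all tested. In SLIT2+APAP against control (1) the number was 0 with library totals only (390 of 16876) and without the SLIT2 libraries (3 of 15932). Of the 10, 3 and 2 had an unadjusted p under 0.05 there, and of all genes 3702 and 3286. It was 2 without a count filter (359 of 23006) or at a minimum of 10 CPM (509 of 7393). It was 3 with DESeq2 (1455 of 14977) and with the 4 compared libraries (4246 of 15496). In SLIT2 against control (3) it was 5 at a minimum of 10 CPM (4645 of 7393) and 6 with the 4 compared libraries (10570 of 16146). For the interaction (4) it was 2 at a minimum of 10 CPM (3303 of 7393), and it fell without control 1, as did the number over all genes. With the replicate block it was 2 in SLIT2+APAP against control and 6 in SLIT2 against control, and 2 and 6 in the same 6 libraries without the number. Of all 16419 genes the block fit called 2494 and 11062, and the fit without the number called 2582 and 11176. The causes were not tested. The ranges that follow include fits with a library left out, in which the number over all genes moved too. Of the other genes, the number called in SLIT2+APAP against APAP ran from 0 to 7 in synthesis and conjugation (5), 0 to 4 in transport (3) and 0 to 3 in regulators (1), and in SLIT2+APAP against control from 0 to 10 (4), 0 to 4 (0) and 0 to 2 (0). In APAP against control (0 in each list) it was 5, 2 and 1 with DESeq2, which called 1836 of 15869 genes. It stayed at 0 in each list under the other alternatives, save for fits with an APAP library left out. In SLIT2 against control it ran from 12 to 13 (13), 4 to 7 (7) and 3 to 8 (7), and in the interaction from 1 to 10 (8), 0 to 4 (3) and 1 to 5 (2).

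Sign changes were these. Abcc2 in SLIT2+APAP against control was -0.03 with DESeq2, its size factors or GC offsets, and -0.02 without mitochondrially encoded genes, with the replicate block and without the number. With a library left out it ran from -0.04 to 0.08, and in SLIT2 against control from -0.16 to 0.44. Abcb11 in SLIT2 against control was 0.11 and the Nr1h4 interaction -0.09 at a minimum of 10 CPM. With a library left out, Cyp7a1 ran from -1.67 to 1.83 in SLIT2+APAP against control and from -1.21 to 1.91 in the interaction, and Cyp8b1 from -2.13 to 0.22 in SLIT2+APAP against APAP. Nr0b2 ran from -4.38 to 0.23 in APAP against control, from -0.76 to 3.85 in SLIT2+APAP against APAP and from -0.03 to 4.59 in the interaction. Library totals only moved the median log2 fold change of all genes to 0.16 in APAP against control (otherwise 0.05), to 0.12 in SLIT2+APAP against APAP (-0.06), to 0.34 in SLIT2+APAP against control (0.04) and to 0.11 in SLIT2 against control (0.00). With 2 libraries a group, a library that stands alone after another is left out is assumed to vary like the other groups.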

Other observations

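With SLIT2 alone, the other synthesis and conjugation genes moved mostly one way. Of 14 tested, 1 rose (Akr1d1), 12 fell and 1 did not pass, in a comparison that called 54.9% of all genes, with a median log2 fold change of -1.99 (all genes 0.00). Cyp39a1 had 3.16 and 2.55 CPM in SLIT2, against 18.3 and 16.9 CPM in control (-2.62 ± 0.24, edgeR adjusted p = 0.000145). Cyp2c70 had 39.4 and 36.9 CPM in SLIT2, against 230 and 167 CPM in control (-2.38 ± 0.24). Akr1d1 had 193 and 206 CPM in SLIT2, against 64.8 and 116 CPM in control (1.14 ± 0.36, adjusted p = 0.0283). All 7 hepatocyte markers also fell with SLIT2 alone, and 5 of them had a called interaction with APAP, each positive. Whether the bile acid genes differ from such markers was not tested. Of the 14 synthesis and conjugation genes, 8 had a called interaction with APAP (28.8% of all genes were called). All 8 were positive. These 8 genes fell with SLIT2 alone, and SLIT2 went with a smaller fall, or with none, in livers given APAP. Acox2 gave -2.03 without APAP and -1.13 with it, Hsd17b4 -2.58 and -0.25, and Scp2 -1.80 and 0.15. The count of called interactions fell without SLIT2+APAP 1, as did the number over all genes.

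Of 12 other transport genes, 3 rose and 4 fell with SLIT2 alone, a share near the 54.9% of all genes called. Ephx1 had 24.7 and 23.3 CPM in SLIT2, against 204 and 220 CPM in control (-3.14 ± 0.24, 8.83-fold lower, edgeR adjusted p = 0.0001). Abcc3 had 2.83 and 2.63 CPM in SLIT2, against 14.4 and 10.7 CPM in control (-2.20 ± 0.37). Of 12 other regulators, 3 rose and 4 fell, again near that share. Mafg had 279 and 301 CPM in SLIT2, against 43.1 and 60.6 CPM in control (2.48 ± 0.24, adjusted p = 0.000155), and Rxra had 93.8 and 67.7 CPM in SLIT2, against 181 and 186 CPM in control (-1.18 ± 0.24). These values come from the libraries in which all 7 hepatocyte markers fell, and the part of that difference in them was not tested.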
